A study of Enchytraeus crypticus with 54 samples.

Results

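A set of 108 probes of a custom array for the soil worm *Enchytraeus crypticus* is described here. They were chosen by the scanner software's detection flags, as probes undetected on all 3 arrays of control worms at 3 days and detected on all 6 arrays of worms kept for 3 days in field soil with aged copper (Cu-Field, EC20 and EC50). They were 0.247% of the 43750 non-control probes and 2.03% of the 5323 probes that were undetected on the 3 control arrays. The detection flag marks a spot whose signal is positive and significantly above its local background. Since it chose the probes, their behaviour on these 9 arrays is given as a description with no test.

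The study compared copper forms in a natural soil from the Hygum site, with 18 groups of 3 arrays, each array holding labelled RNA from whole bodies of a pool of 20 adult worms. The controls were worms in Hygum soil from the control area, at 3 and at 7 days. The copper groups were kept for 3 or 7 days in soil spiked with the soluble salt copper nitrate (CuNO3), with nanoparticles of copper (Cu-NPs) or with nanowires of copper (Cu-NWires), or in Cu-Field soil, whose copper had aged at the site. Each form was used at its own EC20 and EC50, where reproduction is reduced by 20% and 50%, so that the copper concentrations differed between forms. Pooling means that differences between single worms were not measured, and that fewer cells of a type and less RNA per cell cannot be told apart in whole bodies.

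Enchytraeids are small white oligochaetes that live in the soil and take up metals through the body wall and with the soil they eat. Copper is needed by enzymes of respiration and of antioxidant defence, and in excess it binds proteins and drives the formation of reactive oxygen species. Metal salts act through dissolved ions, particles and wires also release ions as they dissolve, and copper that has aged in the field is in part bound to the soil. The probes carry names of assembled contigs or of single sequencing reads, and the files pair none of them with a gene, so that neither gene functions nor tissue markers could be given. The 108 members had 108 different targets, 66 of them contigs (61.1%, against 53.0% of all probes) and 42 single reads. Their spots lay between row 1 and row 532 of the 532 rows of the array, and 4 members lay within 2 spots of another member.

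The share of all probes detected on an array ranged from 60.9% to 86.7% over the 54 arrays, with a median of 75.3%, and the share well above background (a stricter flag) from 38.2% to 66.5%. On the Control 3 days arrays 69.1%, 84.1% and 65.0% of all probes were detected, and on the Cu-Field 3 days arrays 75.1% to 86.5%. The median log2 signal of the 19499 probes detected on all 54 arrays was 5.73 to 6.34 on the Control 3 days arrays and 6.48 to 7.06 on the Cu-Field 3 days arrays, so the arrays on which the members had to be detected were all brighter than those on which they had to be undetected. Replicate 2 of Control 3 days, with 84.1%, stood apart from the other 2 controls and decided the size of the set. Without it the same rule took 1239 probes, against 160 and 131 without replicate 1 or 3, and 112 to 172 without 1 Cu-Field array, where 172 was the count without EC20 replicate 3. No slide held arrays of both Control 3 days and Cu-Field 3 days, and 4 of the 6 Cu-Field 3 days arrays lay on a slide that held no other array of the series, so that for these 4 slide and group cannot be told apart.

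The signals of the members were low also where they were detected. The median processed signal over the members was 4.64 to 7.93 intensity units on the 6 Cu-Field 3 days arrays and 2.60, 1.75 and 3.1 on the Control 3 days arrays. The members' median of log2 processed signal was 2.62 over the Cu-Field 3 days arrays, where the median of all probes was 3.75, and 1.28 over the Control 3 days arrays, where that of all probes was 3.17. The single member means on the Cu-Field 3 days arrays ran from 1.49 to 4.60. None of the members was well above background on all 6 of these arrays, 48 were so on 1 array, and 24 on none.

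Detected and undetected signals were close to each other. The median over the members of the lowest log2 signal on the Cu-Field 3 days arrays was 1.63, and that of the highest on the Control 3 days arrays was also 1.63. The lowest log2 signal of a detected probe ranged from 0.32 to 1.75 over the 54 arrays. The 6 Cu-Field values lay above the 3 control values for 56 of the 108 members, where this held for 18.1% of all probes. Median normalization sets the median of the always detected probes equal on every array. After it, all 6 Cu-Field values lay above the controls for 9 members (8.33%) and for 3.93% of all probes. All 6 lay below the controls for 0 members and for 15.1% of all probes. The same arrays chose the members, so these contrasts with all probes are in part set by the rule. The members' median normalized level was 2.01, 0.94 and 2.39 on the Control 3 days arrays and 1.91 to 2.52 on the Cu-Field 3 days arrays, so that 2 of the 3 controls fell within the range of the Cu-Field arrays and replicate 2 fell below it. Just outside the rule, 184 probes were undetected on the 3 controls and detected on 5 of the 6 Cu-Field arrays, with median log2 signals of 1.29 and 2.28, and 1206 were detected on 1 control and on all 6 Cu-Field arrays, with 1.84 and 2.87.

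Detection of the members was not restricted to field soil. On the 45 arrays that the rule did not use, every member was detected on at least 9 arrays, with a median of 30 and a highest count of 43. The median was 44 arrays for all probes and 7 for the pool of 5323 probes, which had been undetected on the Control 3 days arrays. The rule took the members from this pool by their detection, so the contrast with the pool is in part set by the rule. On the 39 arrays without any Cu-Field soil the members were detected on 3 to 37 arrays, with a median of 25.5. The probes are therefore called by their rule here and not by the soil.

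**Figure D1:**
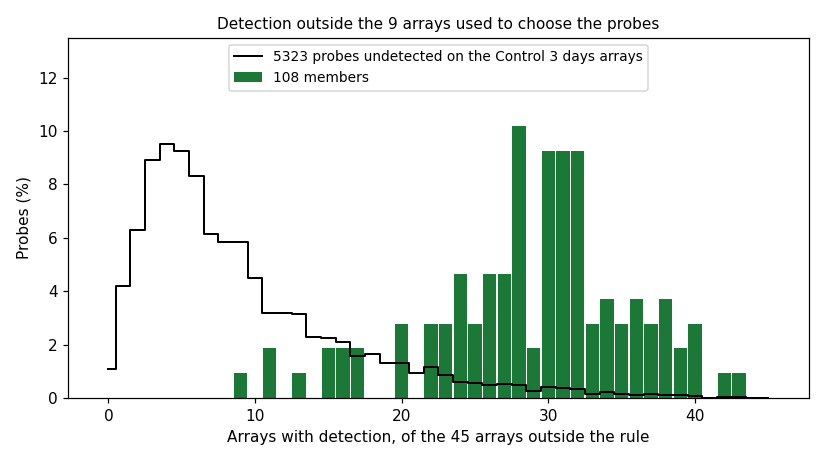
Percent of probes (y axis) by the number of arrays with detection among the 45 arrays outside the rule (x axis). Bars are the 108 members and the line is the 5323 probes undetected on the Control 3 days arrays. The bars run from 9 to 43 arrays around a median of 30, and the line has its median at 7.

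With the other copper forms at 3 days, all but 1 of the 108 members were detected on at least 1 of 18 arrays, with a median of 11 arrays, and 1 member was detected on all 18. CuNO3 EC20 gave 69, 41 and 65 detected members on its replicates 1, 2 and 3, and CuNO3 EC50 gave 85, 51 and 55. Cu-NPs EC20 gave 48, 38 and 23, the lowest counts of a group at this time, and Cu-NPs EC50 gave 83, 81 and 64. The counts of these 2 groups did not overlap. The shares of all probes detected were 78.0%, 66.4% and 65.8% at EC20 and 80.7%, 79.2% and 73.6% at EC50. Cu-NWires EC20 gave 90, 68 and 70 and Cu-NWires EC50 gave 69, 89 and 53. All 6 arrays of a form detected 13 members for CuNO3, 2 for Cu-NPs and 23 for Cu-NWires. Of all probes, 60.1% were detected on all 6 arrays for CuNO3, 54.8% for Cu-NPs and 57.3% for Cu-NWires. The same rule written for the other forms, undetected on the 3 controls and detected on all 6 arrays of the form, took 46 probes for CuNO3, 7 for Cu-NPs and 33 for Cu-NWires, and the opposite rule for Cu-Field (detected on 3 controls, undetected on 6 Cu-Field arrays) took 10.

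At 7 days, 2 of the 3 controls detected most of the members. Control 7 days had 97, 86 and 45 of them on its 3 arrays. Of the members, 103 were detected on at least 1 of these arrays. On all 3 there were 36 members (33.3%), where 66.4% of all probes were detected. Cu-Field EC20 at 7 days had 88, 97 and 78, and Cu-Field EC50 had 99, 72 and 70. The counts of the controls and of Cu-Field overlapped, with the lowest in a control. All 6 Cu-Field 7 days arrays detected 41 members (38.0%), where 59.2% of all probes were detected on all 6. Only 2 members met the rule again at 7 days, with no detection on 3 controls and detection on 6 Cu-Field arrays, as did 5 of all 43750 probes.

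In the other groups of 7 days, CuNO3 EC20 had 73, 63 and 21 detected members and CuNO3 EC50 had 66, 95 and 90. Cu-NPs EC20 had 29, 70 and 33 and Cu-NPs EC50 had 90, 101 and 61. Cu-NWires EC20 had 99, 64 and 50 and Cu-NWires EC50 had 75, 67 and 100. Replicates within a group differed widely, from 21 to 73 in CuNO3 EC20 and from 45 to 97 in Control.

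**Figure D2:**
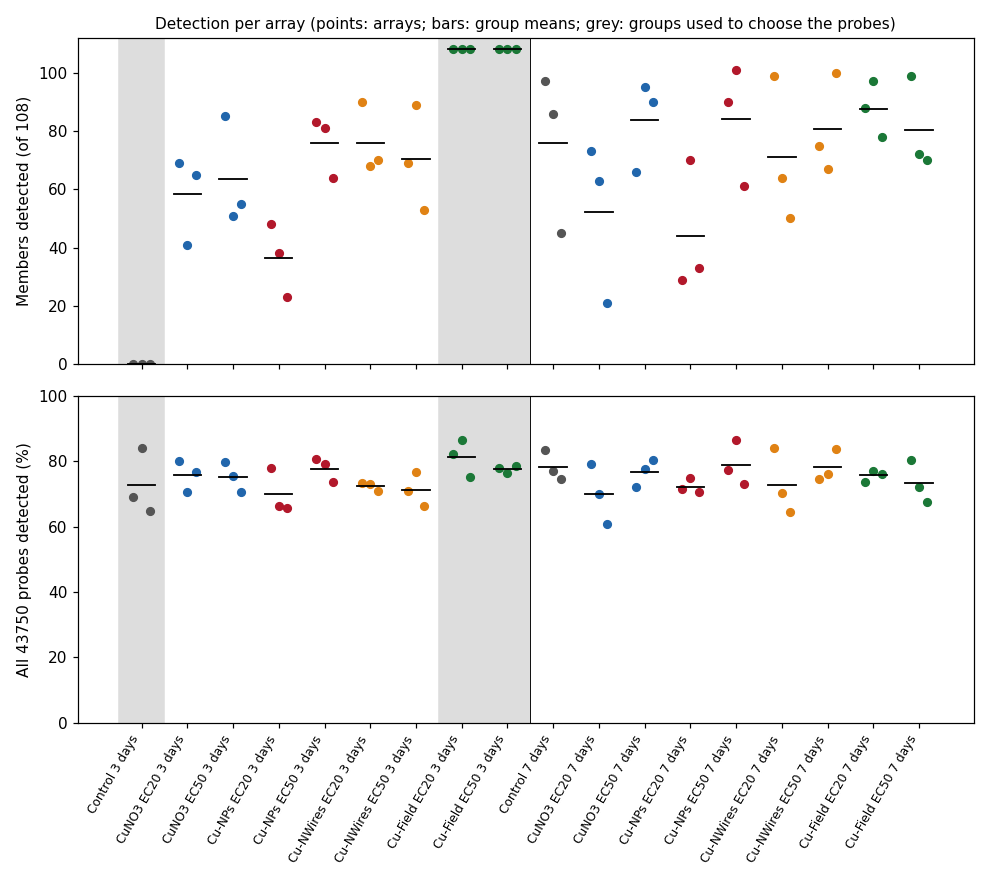
Members detected of 108 (upper y axis) and percent of all 43750 probes detected (lower y axis, from 0) on each of the 54 arrays by group. Points are arrays, bars are group means, and grey marks the 9 arrays that chose the members, where the counts are 0 and 108 by the rule. On the other arrays the counts run from 21 to 101, and Control 7 days (45 to 97) overlaps Cu-Field at 7 days (70 to 99).

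The number of detected members moved with the share of all probes detected on the same array. Among the 45 arrays outside the rule, the 24 with under 75% of all probes detected had a median of 63.5 members (21 to 90), the 13 with 75% to 80% had 81 (48 to 97), and the 8 with 80% or more had 98 (69 to 101). In 14 of the 15 groups outside the rule the array with the highest share of all probes also had the most members, and in 10 of the 15 the array with the lowest share had the fewest. The lowest array of both measures was replicate 3 of CuNO3 EC20 at 7 days, with 60.9% of all probes and 21 members, and the highest was replicate 2 of Cu-NPs EC50 at 7 days, with 86.7% and 101. The member share exceeded the share of all probes on 13 of the 45 arrays and that of the pool on all 45. The median shares were 64.8% for members, 74.7% for all probes and 19.1% for the pool. Members were taken from the pool by their detection on other arrays, so a higher share than the pool's is in part set by the rule. How far array brightness takes part in the choice of the members was not tested.

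Before normalization, the group levels of the members lay between 1.27 and 2.7 on the log2 scale. The mean over 3 arrays of the members' median log2 processed signal was highest in Cu-Field EC20 at 3 days (2.7 ± 0.42, SD, n = 3), followed by Cu-NPs EC50 at 7 days (2.47 ± 0.74), Cu-Field EC50 at 3 days (2.45 ± 0.29), Cu-Field EC50 at 7 days (2.43 ± 0.69) and Cu-Field EC20 at 7 days (2.34 ± 0.40). Over all 18 groups, neighbours in this order differed by less than the larger of their SDs. Control 7 days had 2.23 ± 1.0, where replicate 3 was at 1.08 and replicates 1 and 2 at 2.80 and 2.83. The lowest groups were Cu-NPs EC20 at 3 days (1.27 ± 0.15), Control 3 days (1.27 ± 0.42) and Cu-NPs EC20 at 7 days (1.33 ± 0.16). This order depended on the scaling. After Median normalization, used for the tests, the highest group was Control 7 days (2.30 ± 0.27), followed by Cu-Field EC20 at 3 days (2.26 ± 0.32), Cu-Field EC50 at 3 days (2.21 ± 0.02) and Cu-NPs EC50 at 7 days (2.2 ± 0.73). Cu-Field EC50 at 7 days had 1.95 ± 0.55, and the lowest were Cu-NPs EC20 at 7 days (1.75 ± 0.21) and Cu-NWires EC20 at 3 days (1.75 ± 0.06). After SVCD normalization Cu-Field EC20 at 3 days (2.62 ± 0.34) was highest, and Control 3 days (1.3 ± 0.74) and CuNO3 EC20 at 3 days (1.3 ± 0.05) were lowest. By unnormalized signal, 31 of the single members had their highest group mean in a Cu-Field 3 days group and 17 in Cu-Field EC50 at 7 days. The lowest group mean was in Control 3 days for 37 members and in Cu-NPs EC20 at 7 days for 25. The Control 3 days and Cu-Field 3 days arrays chose the members, so the counts of these groups are in part set by the rule. All probes were not counted in this way.

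**Figure D3:**
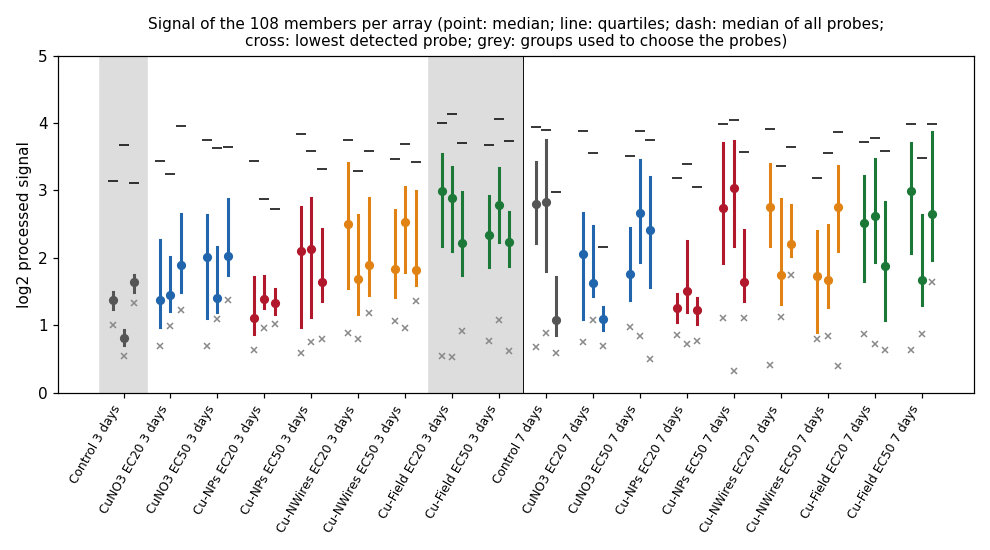
Log2 processed signal (y axis) of the 108 members on each array by group. Points are medians over the members, lines their quartiles, dashes the median of all probes, crosses the lowest signal of a detected probe, and grey marks the arrays of the rule. The Cu-Field 3 days arrays lie at 2.21 to 2.99, replicates 1 and 2 of Control 7 days at 2.80 and 2.83, and the members stay below the median of all probes on every array.

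Differences that the rule did not use were tested with limma on Median-normalized log2 signals of all 43750 probes in 1 fit over the 54 arrays, with Benjamini-Hochberg adjustment in each comparison and a threshold of 0.05. Arrays of the same group differed by a median SD of 0.83 (log2) for members and 0.68 for all probes. In the comparison of Cu-Field with Control at 7 days, 33 members were well above background on no array of either group, and 35 on arrays of both.

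At 7 days, 1 of the 108 members was called between Cu-Field (mean of EC20 and EC50, 6 arrays) and Control (3 arrays), where 0.224% of all probes were called, and it was lower. None was called higher. The median log2 difference was -0.22 for the members and -0.25 for all probes, and 42 members had a positive difference. As the median of all probes was also negative, lower values were not particular to the members. At an unadjusted p under 0.05 there were 8 members (7.41%), all with lower values, where 12.5% of all probes passed, and with the methods' t-test there were 6 members before adjustment, where 10.5% passed, and 0 after it. No member had all 6 Cu-Field arrays above the 3 controls after normalization, where 0.935% of all probes had, and 3 had them all below, where 3.72% had. With SVCD normalization, which the study developed to keep differences between conditions, the median difference was 0.27 for the members and 0.23 for all probes. No member was then called, where 1.68% of all probes were called (689 higher and 45 lower).

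The called member, a probe to a single read that is not among those named below, was detected on all 3 controls and on 4 of the 6 Cu-Field arrays of 7 days. Its log2 processed signal was 2.59, 3.91 and 2.80 on the controls, 2.28, 0.99 and 0.96 with Cu-Field EC20, and 0.74, 1.99 and 2.09 with Cu-Field EC50. All Cu-Field values lay below the control values. Its normalized log2 difference was -2.08 ± 0.48 (SE, adjusted p = 0.046). As it was not well above background on any Cu-Field array of 7 days, and was so on 1 control, it is given as at least 1.3-fold lower. Such bounds compare the mean of the brighter group with a mean over the dim arrays. On each dim array the lowest signal well above background or the probe's own signal was taken, whichever was higher. No spread between arrays enters such a bound. The call was lost with every other scaling between arrays, and over all alternatives its adjusted p was 0.0181 to 1.0. It was also lost without replicate 2 or 3 of Control 7 days (log2 differences of -1.88 and -1.80), replicate 2 or 3 of Cu-Field EC20 (-1.94 and -2.02) or replicate 1 or 2 of Cu-Field EC50 (-1.84 and -2.22). The number of called members was 2 without replicate 1 of Control 7 days, where 0.51% of all probes were called, and 1 without its replicate 2, where it was another member and 1.38% of all probes were called. It was 0 without its replicate 3, where 0.00914% of all probes were called, and 0 without the Cu-Field arrays just given, where 0.107% to 0.137% were called.

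Named here by their probes are the 2 members with the most positive and the 2 with the most negative difference between Cu-Field and Control at 7 days. The most positive was CUST_33064_PI427420766_b (target GYUW2K402GZOR8, a single read), which was also a member that met the rule again at 7 days. Its log2 processed signal was 0.65, 0.88 and 0.56 on the Control 7 days arrays, 2.44, 1.63 and 1.57 with Cu-Field EC20, and 1.36, 2.41 and 4.89 with Cu-Field EC50. The groups did not overlap on this scale, and EC50 replicate 3 stood above the rest. After Median normalization they overlapped, with 0.30, 0.52 and 1.47 in Control and 0.81 to 4.28 with Cu-Field. At 3 days it had 1.0, 0.51 and 1.32 in Control, 2.15, 0.99 and 3.56 with Cu-Field EC20 and 2.12, 1.72 and 2.89 with EC50. It was detected on none of the 18 arrays of the other copper forms at 3 days and on 3 of the 18 at 7 days, which made it the member with the fewest detections outside the rule, 9 of 45. The normalized log2 difference at 7 days was 1.2 ± 0.65 (SE, adjusted p = 0.454), which was not called. No fold is given, since it was well above background on 1 Cu-Field array and on no control, and the bound was under 1.

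The second, CUST_63554_PI427420766_b (target GYUW2K402HCUQE, a single read), was among the brightest of the set. At 3 days its log2 processed signal was 1.35, 0.81 and 1.59 in Control, 5.37, 4.18 and 2.97 with Cu-Field EC20, and 4.55, 5.46 and 4.76 with Cu-Field EC50. On the Control 7 days arrays it was 5.0, 5.05 and 0.85, and on the Cu-Field 7 days arrays 4.86 to 5.48. Replicates 1 and 2 of Control 7 days were thus as high as field soil, and replicate 3 was as low as Control 3 days. The log2 difference at 7 days of 1.07 ± 0.68 (SE, adjusted p = 0.538) was not called. It was detected on 12 of 18 arrays of the other forms at 3 days and on 14 of 18 at 7 days.

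The most negative was CUST_22180_PI427420766_b (target contig09261). Its log2 processed signal at 7 days was 3.47, 3.5 and 2.45 in Control, 1.07, 0.90 and 1.70 with Cu-Field EC20, and 0.69, 1.03 and 2.83 with EC50, where replicate 3 of EC50 overlapped the controls. The difference was -2.25 ± 0.68 (SE, adjusted p = 0.162) and was not called. At 3 days the same probe had 1.19, 0.66 and 1.5 in Control and 2.54 to 4.52 with Cu-Field, where the rule required its detection. At 7 days it was detected on every control, and with Cu-Field on EC20 replicate 3 and EC50 replicate 3 only. On arrays of the remaining copper forms it was detected on 10 of 18 at 3 days and on 12 of 18 at 7 days. The other, CUST_8577_PI427420766_b (target contig21536), had 2.63, 4.42 and 2.75 in Control 7 days, 1.39, 1.3 and 1.07 with Cu-Field EC20, and 1.97, 1.34 and 2.12 with EC50, with no overlap. Its difference of -2.22 ± 0.60 (SE, adjusted p = 0.102) did not pass the test. At 3 days it had 1.5, 0.93 and 1.84 in Control and 1.72 to 4.70 with Cu-Field. Neither probe was well above background on a Cu-Field array of 7 days. The bounds were 1.34-fold and 1.46-fold lower, but they rest on group means alone and neither difference was called.

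**Figure D4:**
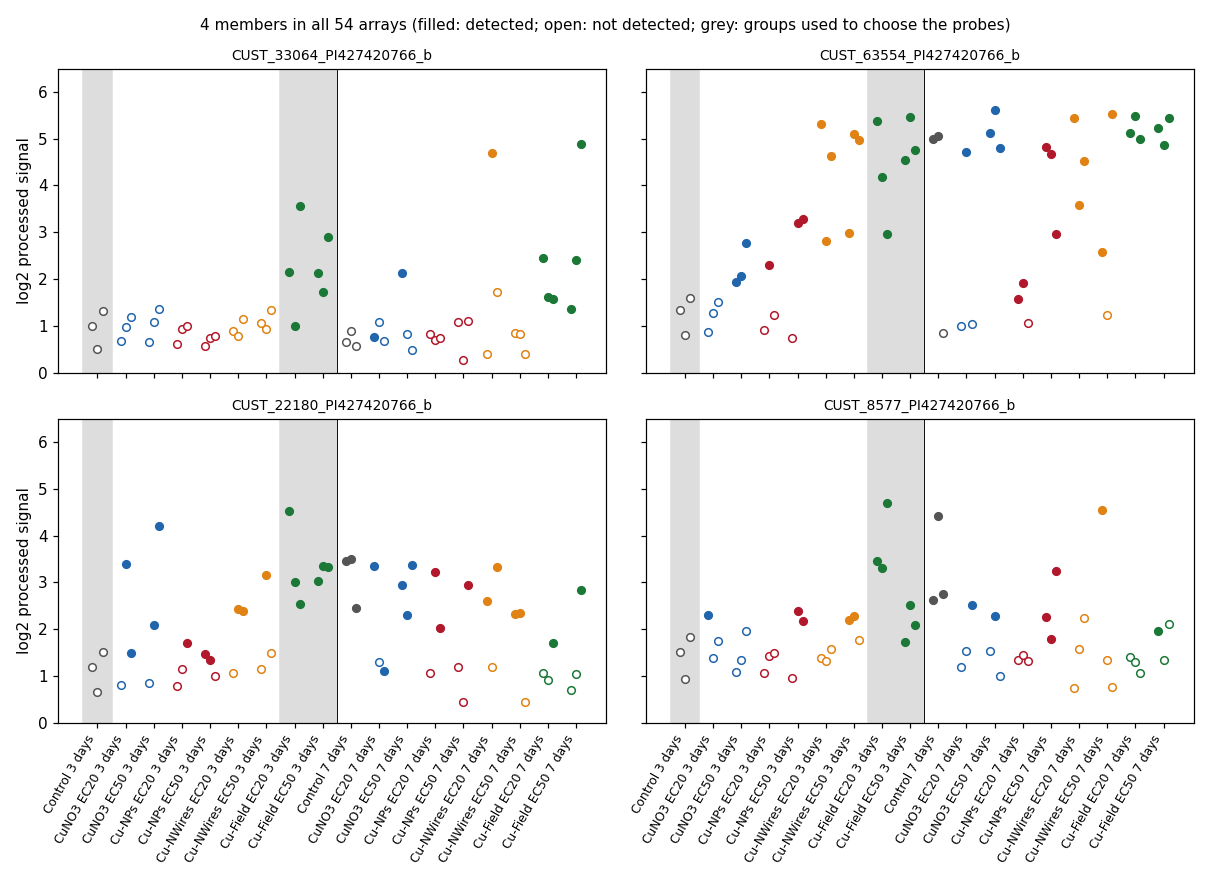
Log2 processed signal (y axis) of the 4 named members on all 54 arrays by group. Filled points are arrays with detection, open points arrays without, and grey marks the arrays of the rule. The upper left probe is detected on 9 of the 45 other arrays and the upper right probe on 34, and the lower probes, with 27 and 15, are higher in Control than in most Cu-Field arrays of 7 days.

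The other member that met the rule again at 7 days, singled out after its values were seen, had log2 processed signals of 1.03, 1.39 and 1.08 in Control 7 days, 2.2, 2.16 and 1.25 with Cu-Field EC20, and 3.52, 2.60 and 2.45 with EC50. EC20 replicate 3, though detected, lay within the range of the undetected controls.

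Of the other forms against Control at 7 days, none gave a called member by limma. For CuNO3, 0.00229% of all probes were called. The members' median log2 difference was -0.14, against -0.02 for all probes, and 4 members had an unadjusted p under 0.05, where 3.43% of all probes had, or 5 by the methods' t-test, where 2.46% had. For Cu-NPs, 0.00229% of all probes were called as well. The median was -0.21 for the members and 0.02 for all probes, and 7 members passed unadjusted, where 2.93% of all probes did, or 5 by the methods' t-test, where 1.73% did. For Cu-NWires, 0.0389% of all probes were called. The medians were -0.16 and -0.08, and 5 members passed unadjusted, where 6.32% of all probes did, or 7 by the methods' t-test, where 6.05% did. These comparisons share the 3 control arrays with each other and with the Cu-Field comparison. By level, the median difference was -0.49 for members and 0.11 for all probes with Cu-NPs EC20, and -0.03 and -0.10 with Cu-NPs EC50. With CuNO3 it was -0.24 for members and 0.06 for all probes at EC20, and -0.10 and -0.14 at EC50. With Cu-NWires it was -0.11 and -0.07 at EC20, and -0.26 and -0.11 at EC50.

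Between Cu-Field EC50 and EC20 at 7 days, limma called no member and 0.0% of all probes. The median difference was 0.07 for the members and 0.05 for all probes. At an unadjusted p under 0.05 there were 4 members, where 2.68% of all probes passed, and the methods' t-test gave 4 as well, where 2.57% passed. The single differences ran from -1.60 to 3.58 with a median SE of 0.66. Without EC50 replicate 2, 1 member was called, and it was higher, where 0.0846% of all probes were called, all 37 higher.

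At 3 days, the forms other than Cu-Field were compared with each other, on arrays that the rule had not used. Between Cu-NWires and CuNO3 (6 arrays each), 9 members were called, 4 higher and 5 lower with Cu-NWires, where 18.2% of all probes were called, 4.24% higher and 13.9% lower. The member share of 8.33% was below that background. At an unadjusted p under 0.05 there were 22 members, where 33.5% of all probes passed, and 21 by the methods' t-test, where 37.1% passed. The direction of these calls depended on the scaling. With SVCD normalization 32 members were called, all higher, where 32.4% of all probes were called higher. With scaling to the E1A spike-in control probes 3 were higher and 0 lower, where 2.5% of all probes were higher, with Quantile normalization 11 were higher and 1 lower, where 5.15% were higher, and with no normalization 5 were higher and 0 lower, where 4.45% were higher. The median difference was -0.23 for members and -0.38 for all probes after Median normalization, and 0.71 and 0.56 after SVCD.

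The 4 members called higher with Cu-NWires had log2 differences of 1.69 to 2.63, and the 5 called lower had -1.83 to -1.29. The highest was a contig probe with log2 processed signals of 5.64, 2.64 and 3.98 with Cu-NWires EC20, 4.60, 4.67 and 4.37 with Cu-NWires EC50, 0.82, 1.57 and 1.37 with CuNO3 EC20, and 0.99, 1.17 and 1.56 with CuNO3 EC50. All nanowire values lay above all nitrate values, and the normalized log2 difference was 2.63 ± 0.54 (SE, adjusted p = 0.00253), which is at least 1.47-fold higher by the bound. The same probe was at 2.28 to 6.48 with Cu-Field at 3 days, at 5.23, 5.55 and 1.55 in Control 7 days, and at 1.24, 0.67 and 1.48 in Control 3 days. The second was CUST_63554_PI427420766_b, named above, with 2.12 ± 0.56 (SE, adjusted p = 0.00966), at least 1.46-fold higher. The lowest was a single-read probe with 0.98, 0.94 and 1.82 with Cu-NWires EC20, 2.29, 1.12 and 1.47 with Cu-NWires EC50, 1.73, 4.21 and 3.11 with CuNO3 EC20, and 3.1, 2.79 and 1.97 with CuNO3 EC50. Its values overlapped between the forms, and the difference was -1.83 ± 0.62 (SE, adjusted p = 0.0364).

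Between Cu-NPs and CuNO3 at 3 days, limma called no member, where 0.00914% of all probes were called. The median difference was 0.02 for the members and 0.01 for all probes. At an unadjusted p under 0.05 there were 7 members, 6 of them with higher values, where 4.63% of all probes passed, and the methods' t-test also gave 7, where 3.62% passed. The single differences ran from -0.94 to 1.21 with a median SE of 0.47.

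**Figure D5:**
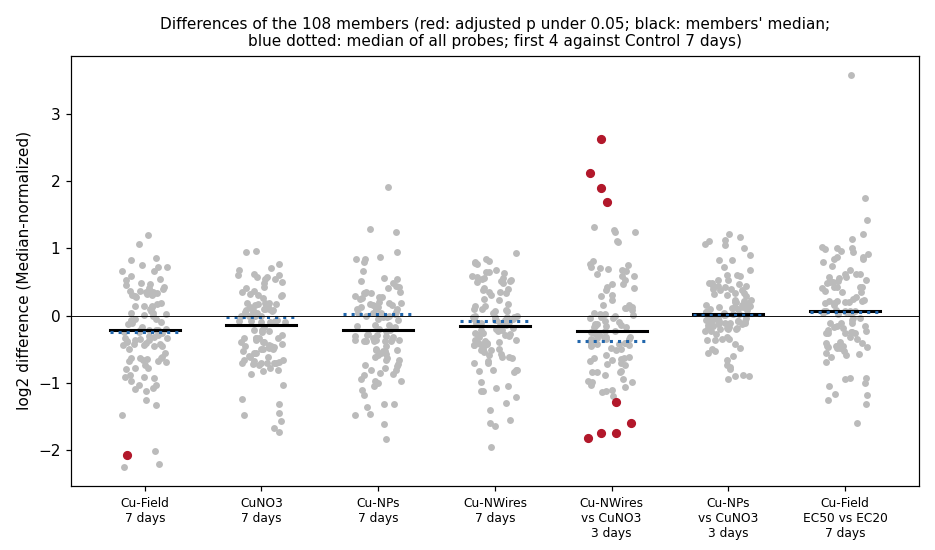
Log2 differences of Median-normalized signal (y axis) of the 108 members in the 7 comparisons. Points are members, red where the adjusted p was under 0.05, black lines the members' medians and blue dotted lines the medians of all probes, and the first 4 columns are against Control 7 days. Calls are 1 for Cu-Field at 7 days (lower), 9 for Cu-NWires against CuNO3 at 3 days (4 higher and 5 lower, a split that turned with other scalings) and 0 elsewhere.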

How the data were processed

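RNA of 54 pools was hybridized on 1-colour custom Agilent arrays. The authors deposited the scanner files of Agilent Feature Extraction (10.7.3.1), whose processed signals are intensity values on a linear scale, with background subtracted and no normalization between arrays, and a value table holding the same intensity values rounded (ratio 0.995 to 1.005). Detection flags of 0 or 1 for each spot were deposited in the same files. Columns of no sample of the series numbered 0. No non-control spot was saturated, and no replicate arrays of a group were identical.

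The members and all lists were chosen with earlier results of these data known. Processed signals were transformed to log2 with no pseudocount and no filter on dim probes, and the median of the 19499 probes detected on all arrays was set equal between arrays (Median normalization). Groups were fitted in limma 3.58.1 (R 4.3.3), with 1 mean per group, the EC20 and EC50 groups of a form averaged, and Benjamini-Hochberg adjustment. The number of arrays, 3 per group, limits the precision. Replicates are separate pools of worms. Comparisons with Control 3 days or Cu-Field 3 days arrays were not tested, since these chose the members. The named members were the 2 with the most positive and the 2 with the most negative difference between Cu-Field and Control at 7 days. The fit was also run on simulated data, for Cu-Field against Control at 7 days, with 200 of 43750 probes changed. Of these, 7.5% were called at a change of 1 log2, 57.5% at 2 and 85.5% at 3. False calls were 0 of 15, 8 of 123 and 13 of 184. With no change, 0 probes were called. The changed probes were drawn from all probes, and members alone were not simulated. The median SD within a group was 0.83 for members and 0.68 for all probes. A member without a call may thus still differ by 1, 2 or even 3 log2. Alternatives were other scalings, background correction, a floor, filters, blocks, fewer groups, the methods' t-test (EC20 and EC50 arrays pooled), the value table and each array left out. The normexp correction used median spot signals, because the mean signal was not among the columns used here. Figures were drawn with matplotlib 3.10.9, and tables with pandas 2.3.3. Probe sequences were not analysed here.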

Additional observations from a re-analysis of the deposited data

How the results depend on the processing

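With the stricter flag for signals well above background, the rule took 212 probes. None of the 108 members was among them, since none was well above background on all 6 Cu-Field 3 days arrays. The number of members was 292 where 5 of 6 Cu-Field arrays sufficed and 1314 where 1 of 3 controls could be detected. Without 1 of the 9 arrays it was 112 to 1239. The median number of members detected per array was 70, and 10 with the stricter flag. For Cu-Field against Control at 7 days, the 1 called member became 0 with SVCD, 75th percentile, Quantile, E1A spike-in or no scaling, with normexp, with the replicate, slide or scan day block, with only the groups of the comparison and with the methods' t-test after adjustment, and 6 with it before adjustment. Under the alternatives with 0 members, 0.0% to 1.68% of all probes were called. Without 1 array it was 0 to 2, where 0.00914% to 1.38% of all probes were called. The cause was not tested. For Cu-NWires against CuNO3 at 3 days, the 9 called members became 32 with SVCD, 5 with no scaling, 3 with E1A scaling, 0 with normexp (where 6.16% of all probes were called) and 21 with the methods' t-test before adjustment. Without 1 array they were 6 to 13, where 7.41% to 20.3% of all probes were called. The methods' t-test before adjustment gave 5 members for CuNO3, 5 for Cu-NPs and 7 for Cu-NWires against Control at 7 days, 7 for Cu-NPs against CuNO3 at 3 days and 4 for Cu-Field EC50 against EC20, each in place of 0. The limma counts of these comparisons stayed at 0 without any single array, except for Cu-Field EC50 against EC20, with 0 to 1 (0.00457% to 0.0846% of all probes). The filter on dim probes kept all 108 members, as the rule makes them detected in a whole group.

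Replicate numbers did not pair the samples. Deviations of same-numbered arrays from their group means correlated with r of -0.755 to 0.74 over 75 pairs, in 0 of the 7 comparisons was every pair over 0.1, and 49 of 150 array checks found the best partner under the same number. With the replicate block, 0 members were called for Cu-Field at 7 days, where 0.224% of all probes were, 10 for Cu-NWires against CuNO3 at 3 days, where 18.1% were, and 0 in the other comparisons.

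The 4 named differences kept their sign under all 24 alternatives, with ranges of 0.14 to 2.51, 0.11 to 1.57, -2.55 to -0.21 and -2.75 to -0.26. These 4 were chosen as the extremes of this comparison and refitted on the same arrays, so the kept sign is in part set by the choice. The only call among them was the last, without replicate 1 of Control 7 days (adjusted p = 0.0486, the lowest of its 24). Most members lay near the background on most arrays, which limits what these signals can show.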
